A study of Rattus norvegicus with 18 samples.

Results

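Lcn2 encodes lipocalin 2, also called neutrophil gelatinase-associated lipocalin, and is 1 of 4616 named genes with a value in an expression study of cigarette smoke in whole rat lung. It was found by its gene symbol, which 2 rows of the table carry with identical values, so 1 set of values stands for the gene and no second probe checks it. Each value is a log2 ratio of smoke-exposed over fresh-air lung, read on 2-colour microarrays, where 0 means no difference and 1 means a doubling. The high-dose smoke held 600 µg and the low-dose smoke 300 µg of total particulate matter (TPM) per litre, and the control rats breathed conditioned fresh air in the same nose-only chambers. Exposure ran for 2, 7 or 13 weeks, and the interval from the end of the last session to dissection was 2, 6 or 20 hours, which gives 9 combinations at each dose and 18 samples. Each sample was RNA pooled from 4 rats, set against a pool of 4 control rats that the high-dose and low-dose samples of a combination shared. No condition was repeated, and the sources used here give no strain, sex or age. The combinations therefore stand in for replicates, and SDs and p-values hold both error between pools and real change over time. Lcn2 was chosen by its own measured values, the 18 log2 ratios given here, which were known beforehand, so they are described without a test. The genes set beside it as most alike were selected on their correlation with those 18 values.

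Lipocalin 2 is a small secreted protein of innate defence. It binds bacterial siderophores, the iron-carrying molecules that bacteria release, and so withholds iron from them. Neutrophils store it in their granules, and airway epithelial cells and macrophages make it during inflammation. Its gene is known to be switched on by interleukin 1, interleukin 17 and Toll-like receptor signals through NF-kappaB, the co-factor encoded by Nfkbiz and C/EBP factors, and it behaves as an acute phase gene in the liver.

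The region before the gene is shown because both motifs usually named for Lcn2 lie in it. In RefSeq on GRCr8 the gene lies on the minus strand of chromosome 3, and the 179 bases below, chr3:36081852-36082030 read 5′ to 3′ on that strand, end where the outermost annotated transcript begins. Capitals mark matches to GGGANNNTCC, a form of the NF-kappaB motif, and to TTGCNNAA, a form of the C/EBP motif, both searched on both strands.
Lcn2 promoter: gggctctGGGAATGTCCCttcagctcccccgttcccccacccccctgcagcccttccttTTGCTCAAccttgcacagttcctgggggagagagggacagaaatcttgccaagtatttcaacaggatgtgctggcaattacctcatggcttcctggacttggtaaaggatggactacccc
The NF-kappaB letters match at bases 8 to 17 and, overlapping on the other strand, at bases 9 to 18, counted from the first base shown, and the C/EBP letters match at bases 60 to 67. The same NF-kappaB motif was found in 2.50% of 33469 rat promoter windows of 179 bases, and in 3.28% of the 3932 windows of genes measured here. These are the first 179 bases of longer promoter windows. Unlike the Lcn2 stretch, they were not cut at each gene's own outermost transcript start. The C/EBP motif was found in 6.96% of all windows and in 6.64% of those of measured genes. The exact letters GGGAATGTCC occur in 7 of the 33469 windows. A match describes the letters alone and not binding.

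At the high dose Lcn2 stood above air in 9 of 9 samples. After 2 weeks its log2 ratio was 1.80 at 2 hours, 2.17 at 6 hours and 2.08 at 20 hours. After 7 weeks it was 3.71 at 2 hours, 3.17 at 6 hours and 2.56 at 20 hours, and after 13 weeks it was 2.48, 2.71 and 3.18 at the same hours. The 7 week, 2 hour sample was the highest of all 18, a ratio of 13.1-fold over air, and the 2 week samples were the lowest of this dose. The mean was 2.65 ± 0.61 (SD, n = 9 combinations), which corresponds to 6.28-fold, with a range of 3.48-fold to 13.1-fold.

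At the low dose Lcn2 was also above air in 9 of 9 samples. After 2 weeks the log2 ratio was 1.15 at 2 hours, 1.04 at 6 hours and 1.48 at 20 hours. After 7 weeks it was 1.93, 1.85 and 2.20 at those hours, and after 13 weeks 2.09, 2.02 and 1.53. The 3 samples of 2 weeks were again the lowest. The mean was 1.70 ± 0.42 (SD, n = 9), or 3.25-fold, with a range of 2.06-fold to 4.59-fold. The ranges of the doses overlap, since the 2 week high-dose samples lie within the low-dose range, but at each duration every high-dose value was above every low-dose value.

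**Figure D1:**
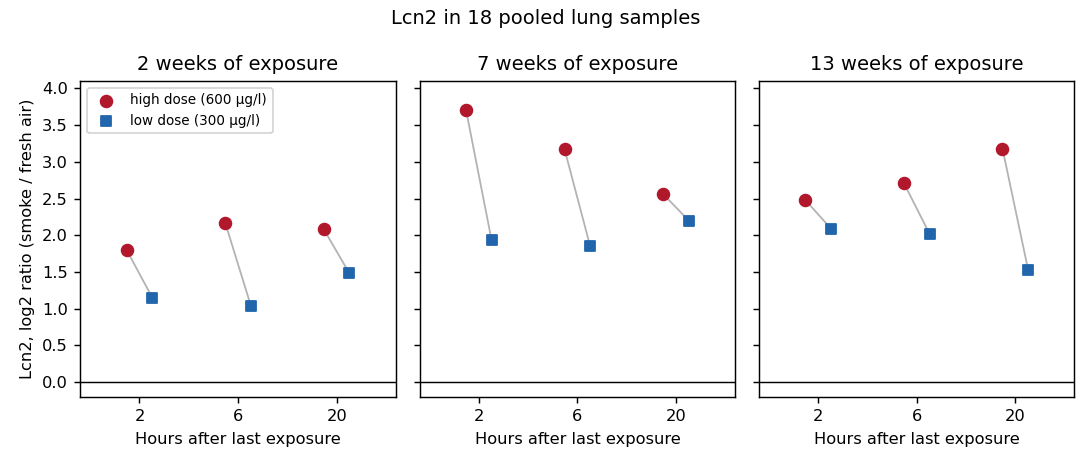
Lcn2 log2 ratio of smoke over fresh air (vertical axis) by hours after the last exposure (horizontal axis), in 1 panel per duration. Red circles are high-dose and blue squares low-dose pools, and a line joins the samples that share a control pool. Each line descends from high to low dose, by 0.36 at 7 weeks and 20 hours up to 1.78 at 7 weeks and 2 hours.

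The difference between the doses was taken within each control pool, where the control cancels. High minus low was 0.65, 1.13 and 0.60 after 2 weeks at 2, 6 and 20 hours. It was 1.78, 1.32 and 0.36 after 7 weeks, and 0.39, 0.69 and 1.65 after 13 weeks. The high dose was thus the higher in 9 of 9 pairs, by 0.95 ± 0.54 on average (SD, n = 9 pairs, median 0.69), a ratio of 1.93-fold between smoke containing 600 and 300 µg TPM per litre. The size of the gap had no common order over hours. It narrowed with hours after 7 weeks, widened with hours after 13 weeks and was widest at 6 hours after 2 weeks. Averaged over hours it was 0.79 after 2 weeks, 1.15 after 7 weeks and 0.91 after 13 weeks.

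The duration of exposure separated the Lcn2 values more than the hours did. At the high dose the mean over the 3 hours was 2.02 ± 0.19 after 2 weeks, 3.15 ± 0.58 after 7 weeks and 2.79 ± 0.36 after 13 weeks (SD, n = 3). At the low dose it was 1.22 ± 0.23, 1.99 ± 0.18 and 1.88 ± 0.31 for the same durations. At matched hours, 7 weeks lay above 2 weeks in 3 of 3 comparisons at each dose, by 1.13 at the high dose and 0.77 at the low dose. Between 13 and 7 weeks the values did not order alike, with a mean change of -0.36 at the high dose (higher after 13 weeks in 1 of 3) and -0.11 at the low dose (higher in 2 of 3).

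Over hours the means hardly differed. At the high dose they were 2.66 ± 0.97 at 2 hours, 2.68 ± 0.50 at 6 hours and 2.61 ± 0.55 at 20 hours, and at the low dose 1.72 ± 0.50, 1.64 ± 0.52 and 1.74 ± 0.40 (SD, n = 3). With both doses averaged, the means over hours spanned 0.03 and those over weeks 0.95. In a sum of squares over the 18 values, dose held 48.2%, weeks 34.7% and hours 0.0405%, and 17.1% remained. The remaining SD was 0.347. Ordered by level, 15 of the 17 gaps between neighbouring samples were smaller than this SD, so most neighbours in the order cannot be ranked. The 2 larger gaps separate the top sample from the next, by 0.53, and 3.17 from 2.71. A gap holds the error of 2 values, so passing the SD of 1 value does not rank these either.

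Few genes stood higher than Lcn2 in any sample. Among 3919 to 4583 named genes with a value, it ranked between 1 and 6 in the high-dose samples and between 3 and 14 in the low-dose samples. It was the highest gene of all at the high dose 20 hours after 7 and after 13 weeks. Its lowest ranks, 14 and 9, were in the low-dose samples 2 and 6 hours after 2 weeks. At 2 and 6 hours the genes above it were most often Cyp1a1, a cytochrome P450 that oxidises aromatic hydrocarbons of smoke, the aldehyde dehydrogenase Aldh3a1 and the quinone reductase Nqo1. At 20 hours they included Dbp, a clock output factor, and the muscle gene Csrp3. These ranks compare log2 differences from air and not the amount of RNA.

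The other genes with the highest means at the high dose had means that differed between the hours. Whether this pattern differs from that of Lcn2 was not tested. With both doses averaged, Cyp1a1 had a log2 ratio of 5.74 at 2 hours, 3.95 at 6 hours and -0.22 at 20 hours. Aldh3a1 had 5.33, 1.95 and 0.32, and Nqo1 had 2.71, 1.62 and 0.30 at the same hours. C3, the central complement protein, had 2.28, 1.35 and 0.96 (limma F test over hours, adjusted p = 0.000584). Cxcl1, a chemokine that attracts neutrophils, had 1.48, 1.59 and 0.79 (adjusted p = 0.00773, or 0.0709 without 7 weeks 20 hours). Against these, Lcn2 had 2.19, 2.16 and 2.17. Over all 18 samples the correlation with Lcn2 was 0.07 for Cyp1a1, -0.06 for Aldh3a1, 0.08 for Nqo1, 0.36 for C3 and 0.48 for Cxcl1.

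**Figure D2:**
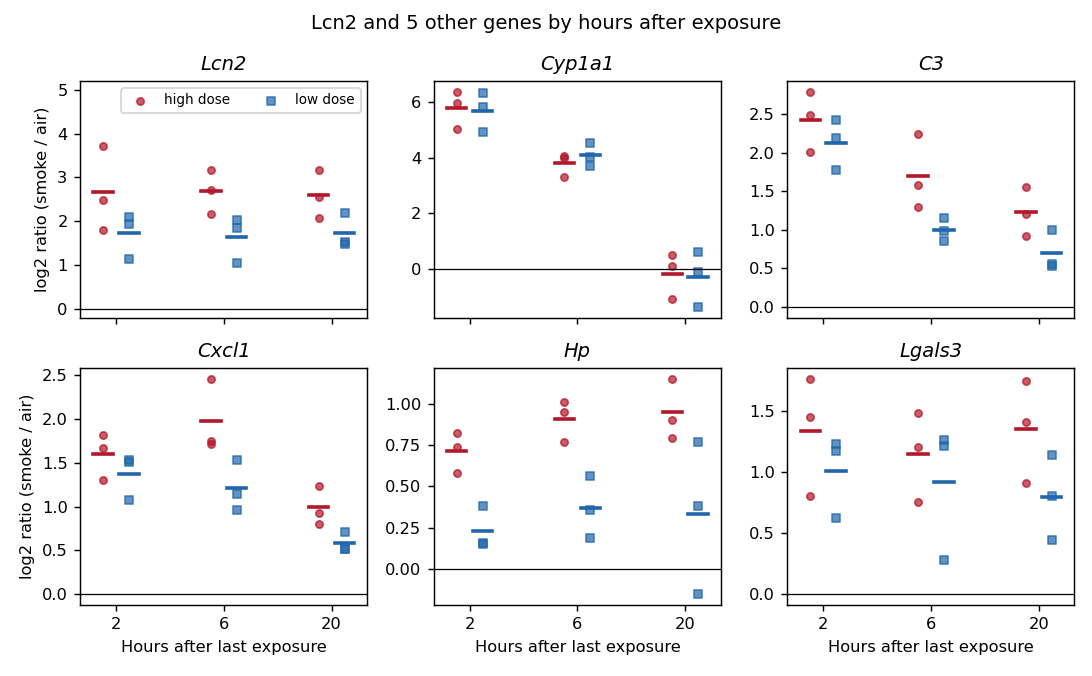
Log2 ratio of smoke over air (vertical axes, scaled per gene) by hours after the last exposure for Lcn2 and 5 other genes. Red circles (left) are the 3 high-dose pools and blue squares (right) the 3 low-dose pools at each time, and bars are their means. The Lcn2 bars hardly move over hours, with 2.66, 2.68 and 2.61 at the high dose, whereas the Cyp1a1 mean over both doses is 5.74 at 2 hours and -0.22 at 20 hours.

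The genes whose values followed Lcn2 best were looked for among 3559 others with a value in all 18 samples, by Pearson correlation. The samples share 9 control pools, and both doses and 3 durations, so r is a description and not evidence of a link. The median r over these genes was 0.02, and 40 genes (1.12%) had r above 0.7. The highest was Lgals3, galectin-3, a secreted lectin abundant in macrophages (r = 0.88). It was followed by Cd68, a lysosomal membrane protein of macrophages (0.87), the lysosomal protease Ctsd (0.84) and Dab2, an adaptor of endocytosis (0.82). The complement regulator C4bpa and the interleukin 1 decoy receptor Il1r2 had 0.81 each, and Dab1, an adaptor of reelin signalling, the lysosomal protease Ctss, the cytokine Tnfsf13 and the phosphatase Dusp7 had 0.80 each. Sftpd, the surfactant protein D, and the semaphorin Sema4a had 0.79 each, next to Tlr2, the thirteenth, which also rounds to 0.79.

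The Lgals3 log2 ratio after 2, 7 and 13 weeks, averaged over both doses and the hours, was 0.63, 1.37 and 1.27, given as a description because the gene was chosen for its likeness to Lcn2. Lgals3 was lowest at 0.28, in the low-dose sample at 2 weeks and 6 hours where Lcn2 was also lowest, and highest at 1.76, in the high-dose sample at 7 weeks and 2 hours where Lcn2 was highest. Its mean was 1.28 ± 0.38 at the high dose and 0.91 ± 0.38 at the low dose (SD, n = 9). Cd68 averaged 1.12 ± 0.36 at the high dose and 0.76 ± 0.19 at the low dose, and Ctsd 0.92 ± 0.34 and 0.63 ± 0.25 at the high and low dose. All 3 were above air in every sample, with smaller mean log2 ratios than Lcn2.

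The 12 genes were chosen on all 18 values, so their r within subsets of these samples is a description and not a check. Within the high-dose samples alone the 12 genes had r between 0.59 and 0.90, and within the low-dose samples between 0.49 and 0.90. After each dose's mean was taken off they had 0.57 to 0.88. Without the samples with the Lcn2 values 3.71 and 3.18, the 2 farthest from the median, r was 0.59 to 0.86. Over the 9 differences of high minus low it was weaker, 0.27 to 0.76. The genes whose own differences followed those of Lcn2 best were Usp4 (r = 0.96), Shox2 (0.93), Ube2s (0.91), Nsmce3 (0.91) and Chmp7 (0.89), a deubiquitinase, a homeobox factor, a ubiquitin-conjugating enzyme, a subunit of the SMC5/6 complex and a membrane-remodelling protein. Apart from Shox2, with 0.76, these had r of -0.18 to 0.48 over the 18 values, and their mean log2 ratios at either dose lay within 0.21 of 0. The 5 were picked as the highest of 3559 genes on 9 differences alone, so their r is a description.

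At the other end of the scale were 4 genes with r below -0.7, of which 3 belong to T cells. Tlk2, a kinase of chromatin assembly, had -0.82, the T cell kinase Lck -0.80, and Cd3d, a chain of the T cell receptor complex, and Lat, an adaptor of that receptor, -0.73 each. Lck had a mean of -0.48 ± 0.20 at the high dose and -0.19 ± 0.31 at the low dose (SD, n = 9). Its high-dose mean was the lower, where the Lcn2 mean was the higher. The 4 genes were chosen on all 18 values, so this order and their r within each dose are descriptions. Within the high-dose samples r lay between -0.87 and -0.77. Within the low-dose samples it was -0.63 for Tlk2, -0.77 for Lck, -0.21 for Cd3d and -0.85 for Lat.

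**Figure D3:**
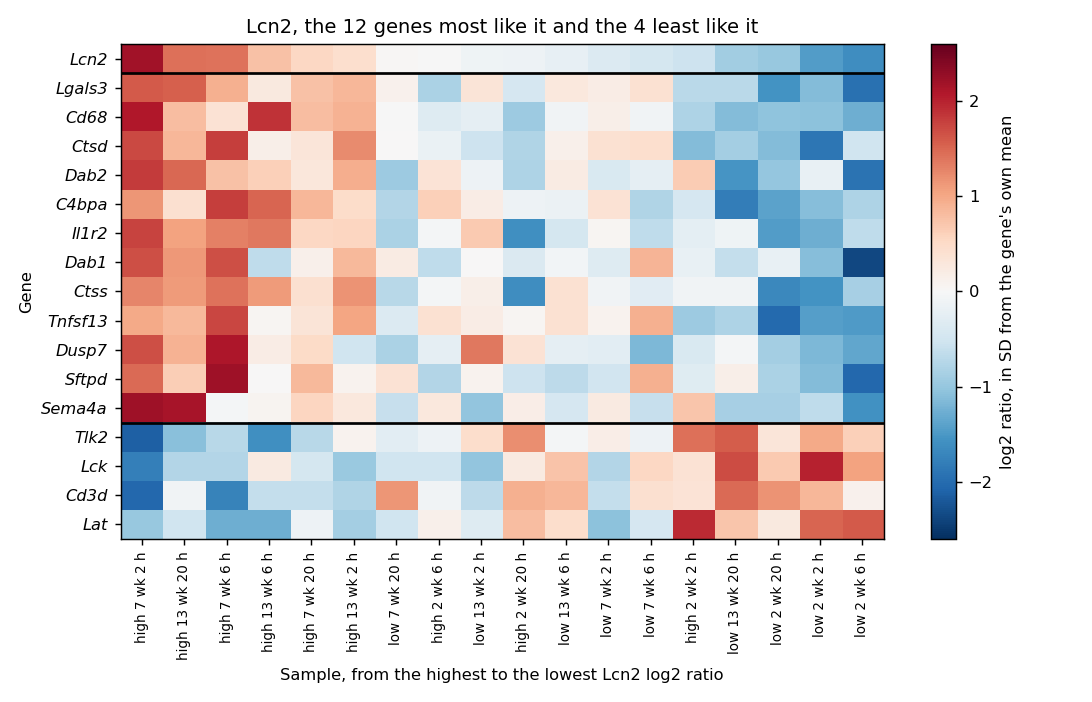
Lcn2, the 12 genes most like it and the 4 least like it (rows) in the 18 samples (columns, ordered from the highest Lcn2 value, 3.71, to the lowest, 1.04). Colour gives each log2 ratio as the number of SDs from the gene's own mean over the 18 samples, red above and blue below. The ordering by Lcn2 brings most red of the 12 genes, and most blue of the other 4, to the left. The rows were chosen by their r with Lcn2, so this pattern follows from that choice.

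Lists of genes linked to Lcn2 were then read from a limma fit across 4016 genes, adjusted by the Benjamini-Hochberg method with a threshold of 0.05. In that fit 17.2% of genes were called at the high dose, 9.56% higher and 7.64% lower than air, and 4.96% at the low dose, 3.51% higher and 1.44% lower. Between the doses 0.149% of genes were higher and 0.0249% lower at the high dose. Over hours 1.6% of the 3994 genes tested there were called. The doses share their control pools, so calls at one dose do not repeat those at the other independently. All smoke samples carried the same dye, and a constant dye effect of a gene cannot be told apart from smoke in any value against air.

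Partners of the lipocalin 2 protein had means near or below air. The receptor Slc22a17, which takes up lipocalin 2, averaged 0.11 ± 0.08 at the high dose and 0.08 ± 0.07 at the low dose (limma, SE, n = 9, adjusted p = 0.389 and 0.571). Mmp9, the gelatinase that lipocalin 2 binds in neutrophils, had too few values to test. Its 7 high-dose values ran from -1.12 to 0.49 with a mean of -0.30, and its 5 low-dose values from -1.29 to 0.59 with a mean of -0.15. Mmp9 was above air at 7 and 13 weeks in the 6 hour samples alone, and below air in each of its other samples, whereas Lcn2 was above air in all of them. Mmp9 had no value at 2 hours after 7 or 13 weeks at either dose. The receptors Lrp2 and Mc4r and the siderophore enzyme Bdh2 were not analysed here.

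Of 24 tested genes of the signals that induce Lcn2, 6 were higher and 1 lower than air at the high dose, and 4 were higher at the low dose. The decoy receptor Il1r2 rose most, by 0.88 ± 0.11 at the high dose and 0.45 ± 0.08 at the low dose (SE, n = 9, limma adjusted p = 0.000156 and 0.00389). Il1r2 is one of the 12 genes chosen for their likeness to Lcn2, so these calls are not independent of that choice. The lipopolysaccharide co-receptor Cd14 rose by 0.63 ± 0.08 at the high dose and 0.38 ± 0.07 at the low dose. Nfkbiz, whose protein IkappaB-zeta acts with NF-kappaB at the Lcn2 promoter, rose by 0.55 ± 0.07 at the high dose and 0.36 ± 0.08 at the low dose. The cytokine Il1b rose by 0.47 ± 0.12 and 0.39 ± 0.10 at these doses. Tlr2 and the interleukin 6 signalling chain Il6st rose at the high dose by 0.26 ± 0.06 and 0.24 ± 0.07, and the adaptor Traf6 fell by 0.30. Of 9 runs that each left out a combination, the high-dose call held in 4 for Il6st and in 7 for Traf6. At the low dose the call held in 2 for Il1b and in 7 for Nfkbiz. Most members lay near air, with a list median of 0.09 at the high dose and 0.05 at the low dose, against 0.00 for all genes at both. The NF-kappaB subunits Nfkb1 and Rela averaged 0.04 and -0.09 at the high dose and did not pass.

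Over hours, 3 of these 24 genes were called, Il1b, Cd14 and Stat3. Il1b had means over both doses of 0.14 at 2 hours, 0.76 at 6 hours and 0.39 at 20 hours (limma F test, adjusted p = 0.0181). At 2 hours after 2 weeks it was -0.17 at the high dose and -0.22 at the low dose, in samples where Lcn2 was 1.80 and 1.15 at these doses. In runs with a combination left out, these calls held in 6 of 9 for Il1b, 2 for Cd14 and 5 for Stat3. The F test adjusted p reached 0.181 for Cd14, without 2 weeks 20 hours. Between the doses the largest difference of the 24 was that of Il1r2, which did not pass (0.43 ± 0.09, SE, n = 9 pairs, adjusted p = 0.063). That difference is not independent of the choice of Il1r2 for its likeness to Lcn2.

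Genes that share NF-kappaB or acute phase control with Lcn2 included the largest rises of the lists. Of 13 tested, 8 were higher at the high dose and 7 at the low dose, all other members not passing, with medians of 0.70 at the high dose and 0.23 at the low dose. C3 rose by 1.79 ± 0.16 at the high dose and 1.28 ± 0.17 at the low dose (SE, n = 9, limma adjusted p = 5.95e-06 and 0.000701). Cxcl1 rose by 1.52 ± 0.13 and 1.05 ± 0.11 at these doses, and the mitochondrial superoxide dismutase Sod2 by 1.17 ± 0.13 and 0.64 ± 0.12. C4bpa rose by 1.12 ± 0.09 at the high dose and 0.54 ± 0.09 at the low dose. The others called at the high dose were the immunoglobulin transporter Pigr (0.90), the haemoglobin-binding haptoglobin Hp (0.86), the prostaglandin synthase Ptgs2 (0.39) and the chemokine Ccl2 (0.28). With a combination left out, the Ccl2 call held in 3 of 9 runs. At the low dose the calls of Hp and Pigr held in 2 of 9, and that of the apoptosis inhibitor Birc3 (0.23) in 3. The Birc3 call was also lost when each sample was centred on the median of its genes.

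Between the doses 3 of these 13 genes were called. Hp was higher at the high dose by 0.55 ± 0.07 (SE, 9 of 9 pairs, limma adjusted p = 0.00377), C4bpa by 0.58 ± 0.09 (9 of 9 pairs, adjusted p = 0.00714) and Sod2 by 0.53 ± 0.10 (9 of 9 pairs, adjusted p = 0.0439). C4bpa is also one of the 12 genes chosen for their likeness to Lcn2, so its difference and its rises against air are not independent of that choice. The Sod2 call held in 4 of 9 runs with a combination left out (limma adjusted p up to 0.124, without 7 weeks 6 hours). Hp ranged from 0.58 to 1.15 at the high dose and from -0.15 to 0.77 at the low dose, and its means over hours were 0.47, 0.64 and 0.64 at 2, 6 and 20 hours. Its means over hours were not called as different (adjusted p = 0.641).

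The NF-kappaB letters of the Lcn2 promoter were compared with those before these genes. Of the 10 of 15 list members with a window in the table, Cxcl1 alone held GGGANNNTCC in the first 179 bases of its window, and 4 held TTGCNNAA there (C3, C4bpa, Orm1 and Ptgs2). Of the 12 genes most like Lcn2, 9 had a window, of which 0 held the NF-kappaB letters in those bases and 3 the C/EBP letters (C4bpa, Ctsd and Sema4a). The rest of each window was not searched, so a match there would not be counted. The stretch before Cxcl1, at chr14:17479385-17479415 of GRCr8, and that of Lcn2, at chr3:36082003-36082030, both on the minus strand, are shown with the match on either strand in capitals, since the 2 genes hold a similar run.
Lcn2: gggctctGGGAATGTCCCttcagctccc
Cxcl1: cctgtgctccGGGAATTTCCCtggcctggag

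Iron genes were examined because lipocalin 2 acts by withholding iron. Of 8 tested, 4 were higher at both doses, Hp among them, with list medians of 0.29 at the high dose and 0.18 at the low dose. The haem oxygenase Hmox1 rose by 0.73 ± 0.16 at the high dose and 0.36 ± 0.09 at the low dose, the ferritin light chain Ftl1 by 0.70 ± 0.10 and 0.60 ± 0.10, and the ferritin heavy chain Fth1 by 0.36 ± 0.07 and 0.32 ± 0.07 (limma, SE, n = 9, all past the threshold). The low-dose call of Hmox1 held in 3 of 9 runs with a combination left out, and that of Hp in 2. The transferrin receptor Tfrc, which takes up iron, had 0.11 at the high dose and -0.02 at the low dose and did not pass. Hmox1 depended on hours (adjusted p = 0.00222), with 1.03 at 2 hours, 0.38 at 6 hours and 0.23 at 20 hours.

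Relatives of Lcn2 in the lipocalin and fatty acid binding protein families mostly stayed near air. Of 9 tested, 3 were higher at the high dose and 1 at the low dose. The fatty acid binding protein Fabp5 rose by 0.90 ± 0.10 at the high dose and 0.49 ± 0.12 at the low dose (limma, SE, n = 9, adjusted p = 3.75e-05 and 0.0263). Its low-dose call held in 3 of 9 runs with a combination left out. The retinol carrier Rbp4 and the complement component C8g had 0.26 ± 0.06 and 0.22 ± 0.05 at the high dose. Orm1, an acute phase lipocalin, was not tested. It averaged 0.71 over 8 high-dose values and 0.43 over 5 low-dose values. The list medians were 0.09 at the high dose and 0.08 at the low dose.

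The genes that flank Lcn2 on the chromosome were also read. Of the 10 coding genes on either side in the RefSeq order, 3 had a value. Slc25a25, a mitochondrial carrier, averaged 0.06 ± 0.19 at the high dose and -0.07 ± 0.21 at the low dose (SD, n = 9), and Dpm2, a subunit of dolichol phosphate mannose synthase, 0.01 ± 0.09 and -0.08 ± 0.24. Dnm1, a dynamin, had 2 high-dose values and 1 low-dose value. The neighbours with values in all samples thus stayed near air where Lcn2 did not.

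**Figure D4:**
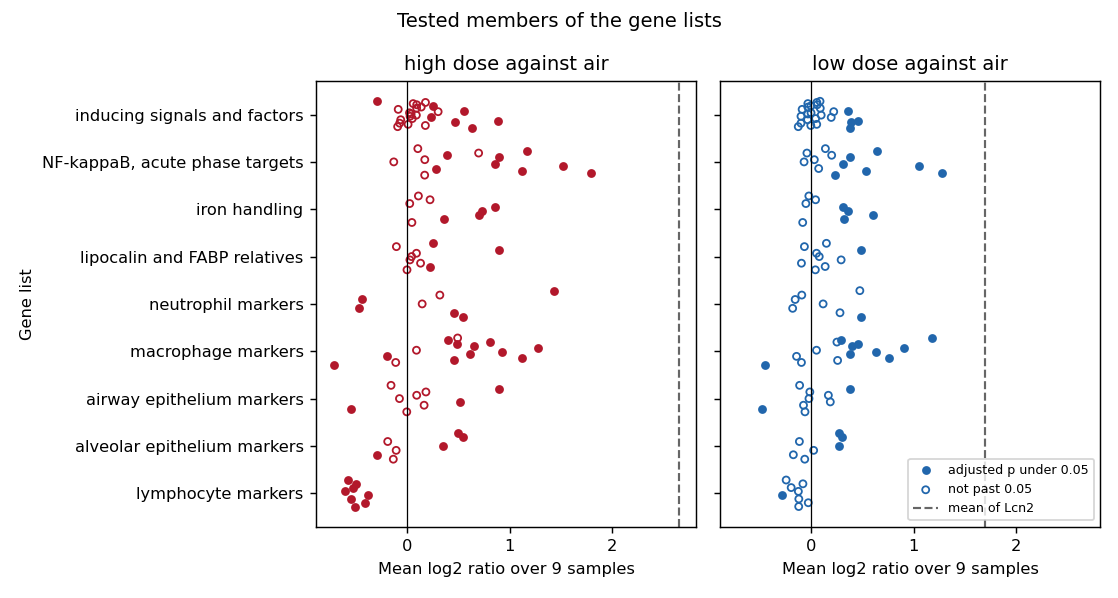
Mean log2 ratio over 9 samples (horizontal axis) of each tested gene in 9 lists (rows), at the high dose (left panel) and the low dose (right panel). Filled points passed limma at an adjusted p under 0.05, open points did not, and the dashed line is the Lcn2 mean, 2.65 at the high dose and 1.70 at the low dose. No list member reaches the Lcn2 mean at either dose, and the closest is C3, at 1.79 at the high dose and 1.28 at the low dose.

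Whole lung mixes cell types, and the values are ratios, so markers cannot show how much of each type was present, and fewer cells of a type cannot be told apart from less RNA per cell. Among neutrophil markers 10 of 25 had values and 7 were tested, of which 3 were higher and 2 lower at the high dose and 1 was higher at the low dose. The list medians were 0.32 at the high dose and 0.12 at the low dose. S100a9, a calcium-binding protein abundant in neutrophils, had 1.43 ± 0.41 at the high dose (limma, SE, n = 9, adjusted p = 0.0278) and 0.48 ± 0.26 at the low dose (adjusted p = 0.359). The chemokine receptor Cxcr2 rose by 0.55 ± 0.11 and 0.49 ± 0.08 at these doses, and the oxidase subunit Cybb by 0.45 ± 0.12 at the high dose. Fcnb, a ficolin, and Retnlg, a resistin-like protein, fell by 0.46 and 0.43 at the high dose. With single combinations left out, the high-dose call of S100a9 held in 4 of 9 runs and that of Fcnb in 3. The granule enzyme Mpo averaged 0.15 at the high dose and 0.12 at the low dose and did not pass.

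The S100a9 means covered a wide range over hours and weeks. They were, over both doses, 0.16, 1.66 and 1.04 at 2, 6 and 20 hours (limma F test, adjusted p = 0.00324), and -0.41, 1.16 and 2.12 after 2, 7 and 13 weeks (adjusted p = 0.000111 against 0.125% of 3994 genes called over weeks). The span of its hour means was narrower without 2 weeks 2 hours, at 0.71, and reached 2.22 without 13 weeks 2 hours. In the 2 week, 2 hour samples S100a9 was -1.47 at the high dose and -1.36 at the low dose, and its partner S100a8 was -1.89 and -1.51. Both were below air there while Lcn2 was above air, at 1.80 at the high dose and 1.15 at the low dose. In the 7 week, 2 hour high-dose sample, where Lcn2 reached 3.71, S100a9 was 0.82 and S100a8 -0.27. Other samples had both genes high. S100a9 was 3.31 in the 7 week, 6 hour high-dose sample, where Lcn2 was 3.17, and 3.32 in the 13 week, 6 hour high-dose sample, where Lcn2 was 2.71. Over the 18 samples the correlation with Lcn2 was 0.64 for S100a9 and 0.49 for S100a8. The mean of the 7 neutrophil markers ranged from -0.71 to 1.18 in the high-dose samples and from -0.58 to 0.63 in the low-dose samples.

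Macrophage markers lay above air with less spread. Of 14 tested, 9 were higher and 2 lower at the high dose, and 8 were higher and 1 lower at the low dose, and the mean of the 14 ranged from 0.31 to 0.58 in the high-dose and from 0.23 to 0.42 in the low-dose samples. Lgals3, Cd68 and Ctsd had the largest rises at the high dose, with means of 1.28, 1.12 and 0.92. They are among the 12 genes chosen for their likeness to Lcn2, so their rises and calls are not independent of that choice. The list medians were 0.49 at the high dose and 0.34 at the low dose. The falls at the high dose were Adgre1, which encodes a surface receptor of macrophages (-0.72 ± 0.06, SE), and the growth factor receptor Csf1r (-0.19 ± 0.06). The call of Csf1r held in 3 of 9 runs with a combination left out, as did that of the mannose receptor Mrc1 at the low dose. Spp1, or osteopontin, had 0.49 ± 0.18 at the high dose and 1.17 ± 0.20 at the low dose, an order opposite to that of Lcn2, although the difference between the doses did not pass (-0.68 ± 0.15, adjusted p = 0.0619).

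Epithelial markers gave mixed values. Of 9 tested markers of airway and secretory epithelium, Pigr and the cilia regulator Foxj1 (0.52 ± 0.11) rose at the high dose and the club cell P450 Cyp4b1 fell by 0.55. At the low dose Pigr rose and Cyp4b1 fell, and the list medians were 0.09 at the high dose and -0.02 at the low dose. Of 7 alveolar markers, the surfactant proteins Sftpa1 (0.54 ± 0.07) and Sftpd (0.50 ± 0.08) and the protease Napsa (0.35 ± 0.07) rose at the high dose, and the water channel Aqp5 fell by 0.29. The list medians were -0.11 at the high dose and 0.03 at the low dose. The same 3 rises were called at the low dose. With single combinations left out, the low-dose call of Sftpd held in 1 of 9 runs and that of Napsa in 5. Sftpd is one of the 12 genes chosen for their likeness to Lcn2, so its rises are not independent of that choice. The mean of the airway markers lay between -0.01 and 0.22 in the high-dose and between -0.12 and 0.08 in the low-dose samples. The mean of the alveolar markers lay between -0.19 and 0.28 in the high-dose and between -0.08 and 0.19 in the low-dose samples.

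The tested lymphocyte markers had means below air at both doses. Il7r, a marker with too few values to test, averaged 0.35 over 7 high-dose values and 0.08 over 4 low-dose values. At the high dose 8 of 8 tested fell, among them the B cell receptor chain Cd79b (-0.61 ± 0.10), the cytotoxic proteins Prf1 (-0.57 ± 0.11) and Gzma (-0.52 ± 0.11) and the T cell receptor chain Cd3g (-0.54 ± 0.09). At the low dose Cd4 fell (-0.28 ± 0.06) and the other 7 did not pass, with list medians of -0.52 at the high dose and -0.12 at the low dose. The mean of the 8 markers was lowest, at -0.92, in the 7 week, 2 hour high-dose sample in which Lcn2 was highest. It ranged up to -0.26 in the high-dose samples, and from -0.58 to 0.12 in the low-dose samples. Cd3d, one of the 8, was chosen for its low r with Lcn2, so its fall and this mean are not independent of that choice. The part of any of these cell types in the Lcn2 values was not tested.

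**Figure D5:**
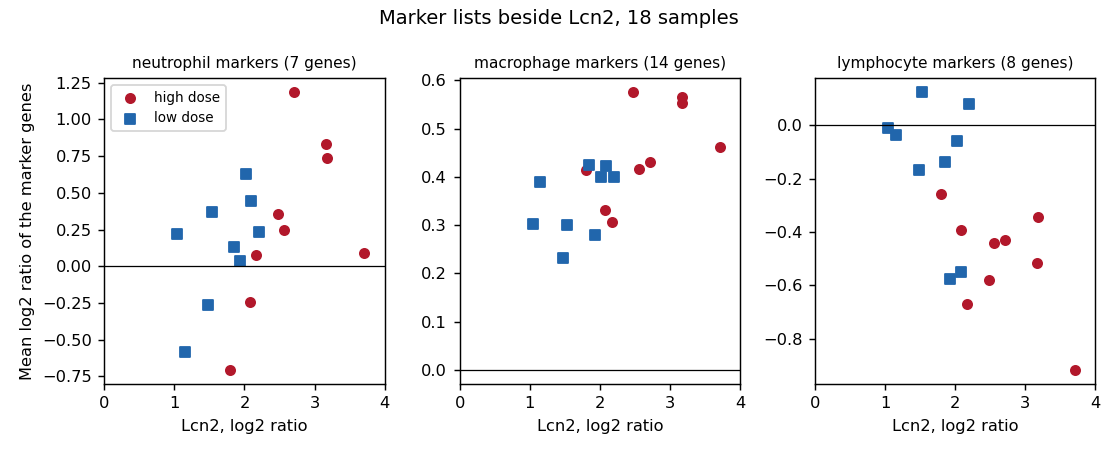
Mean log2 ratio of the neutrophil, macrophage and lymphocyte markers (vertical axes) against the Lcn2 log2 ratio (horizontal axis) in 9 high-dose (red circles) and 9 low-dose (blue squares) samples. The neutrophil mean runs from -0.71, in a sample with Lcn2 at 1.80, to 1.18, in a sample with Lcn2 at 2.71, the macrophage mean stays between 0.23 and 0.58, and the lymphocyte mean reaches its lowest value, -0.92, at the highest Lcn2. Lgals3, Cd68 and Ctsd among the macrophage markers, and Cd3d among the lymphocyte markers, were chosen on their r with Lcn2.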

How the data were processed

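The deposited table holds log2 ratios that the authors made from 2-colour PIQOR arrays, smoke-exposed RNA in Cy5 and control RNA in Cy3 per the labels, with each labelled sample divided over 2 arrays and no dye swap named. How the arrays were scanned, background-corrected, filtered and normalized is not given in the sources used here. Of 257 values under -1, 100% fall on the log2 of a ratio with 2 decimals, and sample medians lie between -0.01 and 0.01, so the ratios appear centred. Of all cells 12.9% are empty, and signal intensities were not used. The number of arrays limits the precision.

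Rows of 1 gene with equal values were merged and the probes of a gene averaged, and 9658 of 11994 rows carried a symbol. Genes with a ratio at each dose in 6 or more of the 9 combinations were tested with limma 3.58.1 (R 4.3.3, lmFit and eBayes, two-sided) against 0, as high minus low within a control pool, and by F tests over hours and weeks on means of both doses, each with the other factor as a covariate. The procedure was tested on simulated data. Alternatives left out each combination, centred each sample, kept complete genes or single probes, and took Spearman correlations, medians, or values with dose means removed.

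Named are Lcn2, the 12 most and 4 least correlated genes, the 5 most alike in the dose difference, the 5 highest at the high dose, up to 4 called members per list, and partner genes. Others, among them Il1b, Stat3, Tlr2, Il6st, Traf6, Ccl2, Nfkb1, Rela, Tfrc, Csf1r, Spp1, Mpo, S100a8, Shox2 and the flanking genes, were added with their values known where they fall outside that rule. The members and lists were chosen with earlier results of these data known. Sequences are from RefSeq (GRCr8). Figures were drawn with matplotlib 3.10.9 in Python 3.11.15.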

Additional observations from a re-analysis of the deposited data

Results flagged for a closer look

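Genes beside Lcn2 whose smoke effect differed between time points are given here with limma F test adjusted p-values. Over hours these were C3 (0.000584), Cxcl1 (0.00773), Hmox1 (0.00222), Il1b (0.0181), Cd14 (0.0385), Stat3 (0.0172), S100a8 (0.000156), S100a9 (0.00324) and Fcnb (0.00527). Over weeks they were S100a8 (0.000111), S100a9 (0.000111) and Lgals3 (0.0147). The C3, Hmox1 and Stat3 means were highest at 2 hours, with 2.28, 1.03 and 0.44, and those of the other 6 at 6 hours, among them S100a8 with 0.77 and Fcnb with 0.24. The call of Cxcl1 over hours was lost without 7 weeks 20 hours (0.0709). In runs with a combination left out, the calls over hours held in 6 of 9 for Il1b, 2 for Cd14 and 5 for Stat3. That of Lgals3 over weeks held in 5 of 9 (up to 0.193, without 2 weeks 2 hours). Lgals3 was chosen for its likeness to Lcn2, so its value over weeks is a description. Without 2 weeks 2 hours the span of the hour means narrowed to 0.71 for S100a9 and 0.93 for S100a8. S100a8 and Fcnb were below air at 2 hours, at -0.68 and -0.82.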

How the results depend on the processing

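Pairs came from the shared control pools, within which high minus low was taken throughout. No fit with a replicate block was made, since the labels give no replicate numbers and each condition has 1 pool. With single combinations left out, the Lcn2 mean ranged from 2.52 to 2.76 at the high dose and from 1.64 to 1.78 at the low dose, and the difference from 0.85 to 1.03. Of the 12 genes most like Lcn2, 6 to 12 stayed in these runs, 4 stayed with Spearman correlation, 5 with dose means taken off, and 11 when genes with at least 15 values were added. Over all genes the number called ranged from 498 to 679 (691 in full) at the high dose and from 123 (without 13 weeks 2 hours) to 193 (199 in full) at the low dose. Between the doses it was 4 to 20 (7 in full), with 20 without 13 weeks 2 hours, and 24 with complete genes alone. Over hours it was 29 (without 7 weeks 6 hours) to 68 (64 in full), with 35 without 7 weeks 20 hours, and over weeks 2 (without 2 weeks 2 hours or 2 weeks 20 hours) to 7 (5 in full). Of the calls of list members, 45 of 51 at the high dose, 20 of 30 at the low dose, 2 of 3 between the doses, 5 of 9 over hours and 2 of 3 over weeks held in each run with a combination left out. No called value against air or between the doses changed sign in the alternatives run. Centring moved the high-dose split to 361 higher and 329 lower. Lcn2 has 1 probe, and its signal over background is unknown.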
